A study of Homo sapiens with 12 samples.

Results

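NFYA, NFYB and NFYC, the genes of the 3 subunits of the transcription factor NF-Y, were followed in THP-1 cells treated with inhibitors of transcriptional kinases. They were taken by name, 3 of the 57002 human genes with a row in the count table, and with earlier results of these comparisons known, so their values are a description and carry no test. All 3 passed the filter on low counts, which 15831 genes passed. In the gene models of GENCODE 29 (GRCh38) the trio had 31 transcript rows, of which 27 held counts and 22 passed the same filter on their own.

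THP-1 is a human acute myeloid leukaemia line. Each sample of 1000000 cells was given AZ5576, a CDK9 inhibitor, THZ531, a CDK12 and CDK13 inhibitor, YKL5124, a CDK7 inhibitor, or the vehicle DMSO, for 2 h, and 4-thiouridine was present at 1 mM for the last 10 min in every group, vehicle included. There were 3 libraries in each of the 4 groups, made from the 3′ ends of polyadenylated RNA with 5% Drosophila S2 material added. The values called DMSO come from 3 columns headed UT, which were matched to the DMSO samples by elimination. The labels give no inhibitor dose, and they name no separate cultures, so the p-values reflect how far these libraries vary, which can be technical variation. A library held 5048321 to 12743576 human counts with 1 row taken per gene, fewest in AZ5576 replicate 2. The summed level of 10 myeloid markers was 651 to 964 CPM, read counts scaled to library size. ELANE alone held 354 to 599 CPM, while MPO stood at 0.991 to 2.57 CPM and CD14 reached at most 0.501 CPM. All 4 erythroid markers were at 0. T cell markers summed to at most 0.0786 CPM, with CD2, CD3G and CD3E at 0, and epithelial and stromal markers to at most 0.799 CPM, with COL1A2 at 0.

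NF-Y is a trimer that binds the CCAAT box, a short motif common in promoters. NFYB and NFYC pair through histone folds like those of the core histones H2B and H2A, and NFYA joins that pair and supplies the contacts that read the CCAAT letters. The complex is known for its part in promoters of cell cycle, sterol synthesis, ER stress and MHC class II genes, where it works beside other factors.

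NFYA lies on chromosome 6 (chr6:41072945-41099976, plus strand), NFYB on chromosome 12 (chr12:104117077-104138289, minus strand) and NFYC on chromosome 1 (chr1:40691648-40771603, plus strand). RefSeq promoter windows (GRCh38.p14, 250 bases before to 50 after a start site) matched 2 of the 3 genes, NFYA and NFYC, and NFYB had no entry. 3 windows are shown, because the factor built from these genes reads the motif they were searched for and because 2 of them lie beside the antisense genes described further on. Capitals mark CCAAT, or ATTGG where the motif is on the opposite strand, and all are printed on the plus strand.
NFYA chr6:41072724-41073023: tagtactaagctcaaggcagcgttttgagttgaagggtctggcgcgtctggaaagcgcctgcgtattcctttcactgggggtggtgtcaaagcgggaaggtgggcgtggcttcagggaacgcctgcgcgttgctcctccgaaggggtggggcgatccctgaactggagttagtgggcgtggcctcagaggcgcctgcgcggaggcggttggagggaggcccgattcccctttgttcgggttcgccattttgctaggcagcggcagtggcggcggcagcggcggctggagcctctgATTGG
NFYC chr1:40691454-40691753: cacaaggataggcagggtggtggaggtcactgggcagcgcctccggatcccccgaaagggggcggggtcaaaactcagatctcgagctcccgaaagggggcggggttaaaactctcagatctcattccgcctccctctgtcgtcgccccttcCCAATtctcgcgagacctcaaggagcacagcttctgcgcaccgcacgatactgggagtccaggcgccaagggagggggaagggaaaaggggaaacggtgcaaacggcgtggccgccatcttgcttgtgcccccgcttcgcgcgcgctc
NFYC chr1:40709116-40709415: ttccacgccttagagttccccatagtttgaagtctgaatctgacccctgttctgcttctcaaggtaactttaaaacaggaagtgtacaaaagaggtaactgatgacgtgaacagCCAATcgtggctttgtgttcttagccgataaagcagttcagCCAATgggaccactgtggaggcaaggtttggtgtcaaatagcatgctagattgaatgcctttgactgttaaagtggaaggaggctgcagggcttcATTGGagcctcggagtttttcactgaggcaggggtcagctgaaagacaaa
The NFYA window held 1 match, an ATTGG that begins at base +46 counted from the start site. The first NFYC window held CCAAT at base -98, and the second held it at -136 and -95 and ATTGG at +1. A further NFYC window (chr1:40738586-40738885) held CCAAT at -177. CCAAT on either strand was present in 34.6% of all 35116 windows, and a match describes letters, not binding.

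NFYA, the subunit that reads the CCAAT letters, was the member whose RNA differed most between groups: it was 2.80-fold higher under THZ531, 1.54-fold lower under AZ5576 and 1.41-fold lower under YKL5124, each against DMSO. NFYA stood at 17.5, 18.8 and 18.8 CPM in AZ5576 libraries. It stood at 71.6, 82.7 and 82.6 CPM in THZ531 libraries and at 21.5, 18.8 and 19.8 CPM in YKL5124 libraries. In DMSO libraries it stood at 28.7, 24.5 and 31.2 CPM. Every THZ531 library was thus above every DMSO library, and every AZ5576 and YKL5124 library was below all of the DMSO libraries. CPM values are scaled by the trimmed mean of M values (TMM), which sets the middle of all human genes to no change, and in bulk RNA fewer cells with a transcript and less of it per cell cannot be told apart.

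Group means for NFYA were 18.4 ± 0.755 CPM under AZ5576, 79.0 ± 6.37 CPM under THZ531, 20.0 ± 1.33 CPM under YKL5124 and 28.1 ± 3.41 CPM under DMSO (SD, n = 3 each). The fitted log2 fold changes over DMSO were -0.63 for AZ5576 (SE 0.10), 1.49 for THZ531 (SE 0.087) and -0.50 for YKL5124 (SE 0.099). Of the 15831 genes tested, 325 had a larger log2 fold change than NFYA under THZ531. A smaller one than that of NFYA was found for 2497 genes under AZ5576 and for 1795 under YKL5124. In order of level the groups ran AZ5576, YKL5124, DMSO, THZ531. The lowest pair did not separate beyond their spread: the highest AZ5576 library and the lowest YKL5124 library were both at 18.8 CPM, and AZ5576 minus YKL5124 was -0.13 on the log2 scale (SE 0.11). THZ531 stood apart from the other two inhibitors, with a log2 difference of -2.11 for AZ5576 minus THZ531 (SE 0.096) and of 1.99 for THZ531 minus YKL5124 (SE 0.093).

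**Figure D1:**
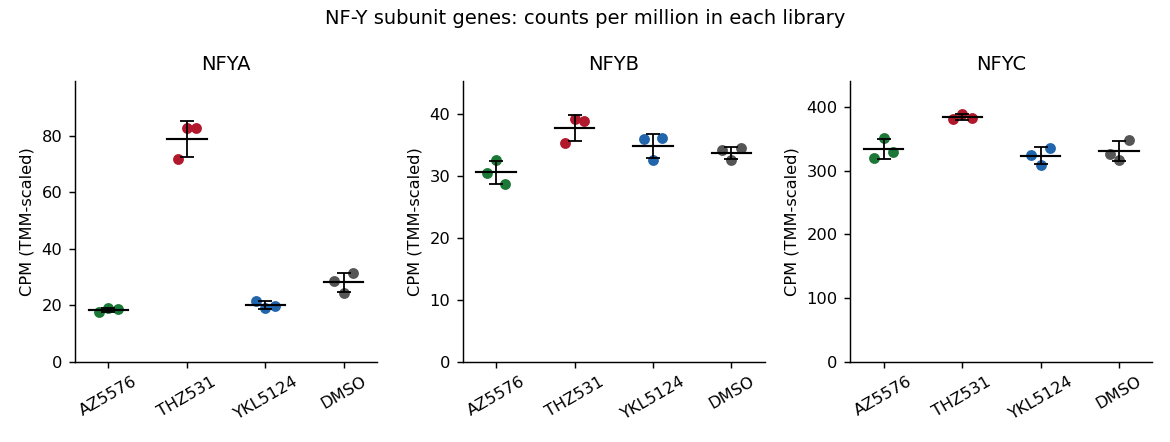
Level of NFYA, NFYB and NFYC (vertical axes, TMM-scaled CPM) in each of the 12 libraries, grouped by treatment on the horizontal axes; points are libraries, long lines are means and error bars are SD (n = 3). NFYA lies near 79.0 CPM under THZ531 and near 28.1 CPM under DMSO, while NFYB and NFYC vary little between groups.

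NFYB, one of the histone-fold subunits, differed far less. It stood at 30.5, 32.5 and 28.6 CPM in AZ5576 libraries. In THZ531 libraries it stood at 35.3, 39.2 and 38.8 CPM, and in YKL5124 libraries at 35.9, 32.6 and 36.1 CPM. In DMSO libraries it stood at 34.2, 32.5 and 34.4 CPM. The YKL5124 and DMSO ranges overlapped, the THZ531 range lay just above that of DMSO, and the highest AZ5576 library (32.49 CPM) was just below the lowest DMSO library (32.55 CPM). NFYB averaged 30.5 ± 1.93 CPM under AZ5576, 37.8 ± 2.14 CPM under THZ531, 34.9 ± 1.93 CPM under YKL5124 and 33.7 ± 1.02 CPM under DMSO (SD, n = 3 each). Its log2 fold changes over DMSO were -0.16 for AZ5576 (SE 0.084), 0.16 for THZ531 (SE 0.083) and 0.05 for YKL5124 (SE 0.082). The THZ531 value changed sign to -0.13 with library size as the only scaling and to -0.20 with scaling on the fly counts, and with fly scaling the YKL5124 value was -0.02. Between inhibitors, NFYB differed by -0.32 for AZ5576 minus THZ531 (SE 0.086), by -0.20 for AZ5576 minus YKL5124 (SE 0.086) and by 0.12 for THZ531 minus YKL5124 (SE 0.084) on the log2 scale.

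NFYC, the other histone-fold subunit, was higher under THZ531 by 1.16-fold and overlapped DMSO in both other comparisons, though its THZ531 log2 value changed sign to -0.072 with library size as the only scaling and to -0.15 with fly scaling. It stood at 321, 352 and 330 CPM in AZ5576 libraries. THZ531 libraries held 381, 390 and 384 CPM, and YKL5124 libraries held 326, 310 and 336 CPM. DMSO libraries held 327, 317 and 348 CPM. All THZ531 libraries lay above the range of the DMSO libraries, while the AZ5576 and YKL5124 ranges overlapped it. NFYC averaged 334 ± 16.1 CPM under AZ5576, 385 ± 4.50 CPM under THZ531, 324 ± 13.2 CPM under YKL5124 and 331 ± 15.7 CPM under DMSO (SD, n = 3 each). The log2 fold changes over DMSO were 0.01 for AZ5576 (SE 0.059), 0.22 for THZ531 (SE 0.058) and -0.03 for YKL5124 (SE 0.058). Between inhibitors NFYC differed by -0.21 for AZ5576 minus THZ531 (SE 0.059), 0.04 for AZ5576 minus YKL5124 (SE 0.059) and 0.25 for THZ531 minus YKL5124 (SE 0.059).

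**Figure D2:**
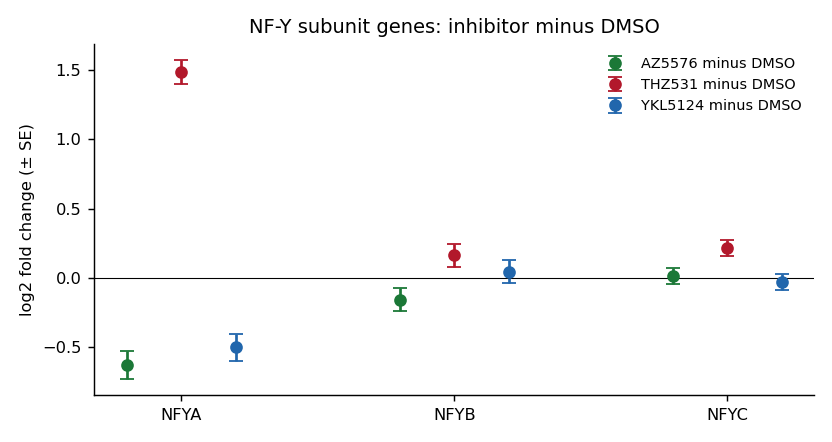
Fitted log2 fold change of each subunit gene over DMSO (vertical axis) for AZ5576, THZ531 and YKL5124; points are the estimates over 3 libraries a group and error bars are SE. NFYA spans -0.63 to 1.49, while NFYB and NFYC stay between -0.16 and 0.22.

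The size of these values depends on what is held constant. Against TMM, scaling by library size alone moved the median of all genes to -0.12 for AZ5576 and -0.29 for THZ531, and scaling by the fly counts moved it to -0.17 and -0.37, on the log2 scale. The fly share itself varied among DMSO libraries. Replicate 2 held 1156879 fly counts beside 9798827 human counts, and replicate 3 held 1116910 beside 11820051. Values with fly scaling carry this spread. NFYA was above DMSO under THZ531 and below it under AZ5576 and YKL5124 with each of the scalings run, and with fly scaling its log2 values were 1.11 for THZ531, -0.81 for AZ5576 and -0.57 for YKL5124. Relative to the median of all genes under fly scaling, the THZ531 values were 1.48 for NFYA, 0.16 for NFYB and 0.21 for NFYC. By the edgeR quasi-likelihood test at an adjusted p of 0.05, members past the threshold were 1 of 3 under AZ5576 (NFYA, lower), where 41.7% of all genes passed, 2 of 3 under THZ531 (NFYA and NFYC, higher), where 63.4% passed, and 1 of 3 under YKL5124 (NFYA, lower), where 20.8% passed. Ranges that did not overlap DMSO were found for 2 members under AZ5576 (NFYA and NFYB, background 47.8%), for all 3 under THZ531 (background 67.0%) and for NFYA alone under YKL5124 (background 35.1%). Nothing is read from these counts, since the members were chosen with the same comparisons in view.

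The libraries are primed at poly(A) tails, so rows whose annotated transcripts end at different places record different 3′ ends. For each gene the row with the most counts was set against the fullest row that ends at least 200 bases nearer the start. Genes whose nearer-ending row held more counts than the longer row in any library were left out. The rows overlap and carry no coordinates of their own, so the counts of the nearer-ending row are given as a percentage of those of the longer one. Both rows of NFYA are protein-coding models whose last exons begin at the same base, chr6:41097357, with NFYA-202 ending 2026 bases before NFYA-201.

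NFYA-202 took a larger percentage of the NFYA-201 counts under THZ531 than in any other group. It held 20.5%, 18.9% and 25.3% in AZ5576 libraries. It held 37.1%, 36.8% and 36.0% in THZ531 libraries and 20.3%, 23.3% and 15.1% in YKL5124 libraries. In DMSO libraries it held 11.6%, 16.0% and 15.4%. AZ5576 and THZ531 libraries were all above DMSO, and the YKL5124 range overlapped that of DMSO. NFYA-202 held only 45, 18 and 57 counts in AZ5576 libraries and 45, 41 and 61 in DMSO libraries. Few counts limit the precision of these percentages outside THZ531. The means were 21.6% ± 3.3 under AZ5576, 36.6% ± 0.559 under THZ531, 19.6% ± 4.12 under YKL5124 and 14.3% ± 2.35 under DMSO (SD, n = 3 each).

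As a level, the nearer NFYA end was higher under THZ531 and overlapped DMSO under AZ5576 and YKL5124. The NFYA-202 row averaged 3.97 ± 0.680 CPM under AZ5576, 28.9 ± 2.06 CPM under THZ531, 3.91 ± 0.794 CPM under YKL5124 and 4.01 ± 0.737 CPM under DMSO (SD, n = 3 each), which is 7.21-fold higher under THZ531 than under DMSO. The NFYA-202 counts were then subtracted from those of NFYA-201, which takes the shorter row as contained in the longer one. The remainder averaged 14.4 ± 0.749 CPM under AZ5576, 50.1 ± 4.34 CPM under THZ531, 16.1 ± 1.46 CPM under YKL5124 and 24.1 ± 3.12 CPM under DMSO (SD, n = 3 each). It was thus 2.08-fold of DMSO under THZ531, 0.597-fold under AZ5576 and 0.669-fold under YKL5124. Fitted as separate rows, NFYA-202 had a log2 fold change of 2.80 (SE 0.15) and NFYA-201 of 1.44 (SE 0.090) under THZ531. Under AZ5576 the same rows had -0.01 (SE 0.20) and -0.65 (SE 0.10), and under YKL5124 -0.06 (SE 0.20) and -0.51 (SE 0.10). The poly(A) signal AATAAA was found in the last 50 bases of both transcripts, beginning 26 bases before the end of NFYA-201 and 25 bases before the end of NFYA-202. AATAAA or ATTAAA was found there in 44.2% of 83129 protein-coding transcripts.

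**Figure D3:**
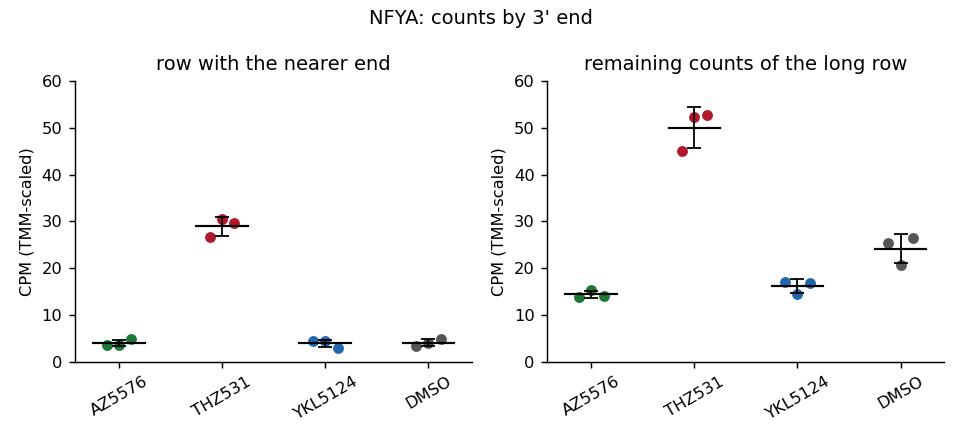
NFYA counts by 3′ end in each library (vertical axes, TMM-scaled CPM), for the nearer-ending row NFYA-202 on the left and for the remaining counts of the longer row NFYA-201 on the right, by treatment on the horizontal axes; points are libraries, long lines are means and error bars are SD (n = 3). The nearer end averages 28.9 CPM under THZ531 and about 4 CPM in the other groups, while the remainder is 50.1 CPM under THZ531 and 24.1 CPM under DMSO.

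For NFYB the inhibitor libraries were not separated from DMSO, although the mean percentage was higher with each inhibitor. NFYB-205 ends 2278 bases before NFYB-201, and its counts were 64.9% ± 3.12 of those of the longer row under AZ5576, 64.7% ± 3.46 under THZ531, 65.6% ± 7.47 under YKL5124 and 58.7% ± 4.64 under DMSO (SD, n = 3 each). All 3 inhibitor ranges overlapped the DMSO range of 53.8% to 63.0%. The mean differences from DMSO were 6.16 points for AZ5576, 6.00 points for THZ531 and 6.92 points for YKL5124. Neither NFYB transcript had AATAAA or ATTAAA in its last 50 bases.

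NFYC gave narrow percentages that were higher with every inhibitor. NFYC-218 ends 494 bases before NFYC-219, and its counts were 37.8%, 38.8% and 36.8% of the longer row in AZ5576 libraries. The percentages were 40.6%, 40.7% and 40.5% in THZ531 libraries and 37.5%, 36.5% and 38.3% in YKL5124 libraries. DMSO libraries had 32.8%, 32.8% and 33.4%. No inhibitor library overlapped DMSO, and the mean differences from DMSO were 4.80 points for AZ5576, 7.60 points for THZ531 and 4.43 points for YKL5124. The nearer-ending row was 1.16-fold of DMSO under AZ5576, 1.43-fold under THZ531 and 1.11-fold under YKL5124, and the remainder of the longer row was 0.938-fold, 1.03-fold and 0.914-fold for the same inhibitors. NFYC-219 and NFYC-218 are annotated as retained-intron models, but protein-coding models end close to each, and NFYC-201, a protein-coding row, held 41879 counts against 42009 for NFYC-219. The signal AATAAA began 19 bases before the end of NFYC-219, and ATTAAA began 19 and 11 bases before the end of NFYC-218.

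Among the 4359 genes with such a pair of rows, the percentage of the nearer end was higher than DMSO without overlap in 9.34% under AZ5576, in 27.8% under THZ531 and in 8.79% under YKL5124. For the members the count was 2 of 3 under AZ5576 and 2 of 3 under THZ531, NFYA and NFYC in each, and 1 of 3 under YKL5124, NFYC. The median difference over those genes was -0.13 points for AZ5576, 0.64 points for THZ531 and -0.04 points for YKL5124, where NFYA had 7.29, 22.3 and 5.26 points.

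**Figure D4:**
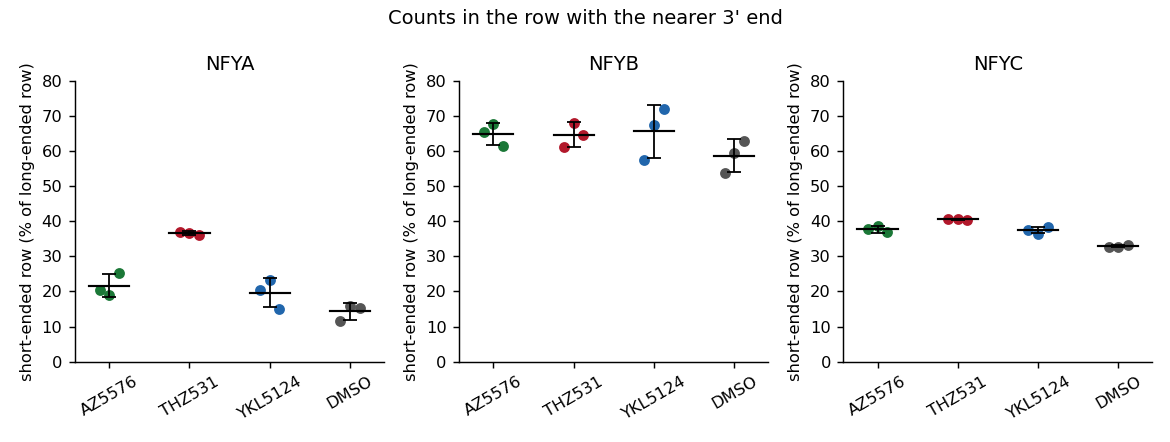
Counts of the nearer-ending row as a percentage of the longer row (vertical axes) for NFYA, NFYB and NFYC in each library, by treatment on the horizontal axes; points are libraries, long lines are means and error bars are SD (n = 3). NFYA reaches 36.6% under THZ531 and 14.3% under DMSO, NFYC is above its DMSO mean of 33.0% with each inhibitor, and NFYB overlaps DMSO throughout.

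Many of the other NFYC rows repeated these ends: 4 had a total within 1% of that of NFYC-219 and 5 a total within 1% of that of NFYC-218. NFYC-207, a protein-coding model that shares the farther end, held 22864 counts and had log2 fold changes of -0.15 under AZ5576 (SE 0.067), 0.05 under THZ531 (SE 0.066) and -0.13 under YKL5124 (SE 0.066). Sparser rows ended inside the gene. NFYC-224, a protein-coding model that ends inside the gene at chr1:40747584, held 12, 1 and 8 counts in AZ5576 libraries. It held 35, 19 and 32 counts in THZ531 libraries, 6, 5 and 13 counts in YKL5124 libraries and 11, 8 and 11 counts in DMSO libraries. Its log2 fold change over DMSO was 1.96 under THZ531 (SE 0.35). Outside THZ531 its counts lay near or below the filter's minimum of 10, so the row may have passed only through the THZ531 libraries. Its value is therefore no support for a direction. NFYC-216, a retained-intron model that ends at chr1:40758448, held 3, 2 and 5 counts in AZ5576 libraries and 4, 5 and 12 in THZ531 libraries. It held 4, 6 and 3 counts in YKL5124 libraries and 17, 12 and 9 in DMSO libraries. These few counts gave log2 fold changes of -1.60 under AZ5576 (SE 0.52), -0.41 under THZ531 (SE 0.44) and -1.28 under YKL5124 (SE 0.49). NFYB-203, also a retained-intron model, held 51 counts over all 12 libraries.

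Both NFYA and NFYC start beside a gene on the opposite strand, and these neighbours were chosen by position and could be tested. OARD1, which encodes an enzyme that removes ADP-ribose from proteins, has a 5′ end 354 bases from that of NFYA, and 1 of its RefSeq windows (chr6:41072565-41072864) shares 141 bases with the NFYA window printed above. OARD1 fell with THZ531, where NFYA was higher. It stood at 27.3, 31.5 and 26.4 CPM in AZ5576 libraries, at 13.8, 13.2 and 11.98 CPM in THZ531 libraries, at 35.5, 37.9 and 30.9 CPM in YKL5124 libraries and at 45.3, 39.3 and 39.2 CPM in DMSO libraries. Its log2 fold changes were -0.56 for AZ5576 (edgeR adjusted p = 1.66e-05), -1.67 for THZ531 (edgeR adjusted p = 3.09e-14) and -0.25 for YKL5124 (edgeR adjusted p = 0.0455). The YKL5124 call was lost with 3 other scalings (adjusted p = 0.0774 with RLE, 0.133 with upper quartile and 0.0844 with fly scaling). Exons of OARD1 overlap 75 bases of the last exon of NFYA, and the strand setting of the counting is not given in the sources used here.

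NFYC-AS1, an antisense RNA whose 5′ end lies 418 bases inside NFYC, so that the genes overlap by 419 bases, fell with each inhibitor. It stood at 18.1, 14.5 and 19.6 CPM in AZ5576 libraries, at 73.0, 71.5 and 74.8 CPM in THZ531 libraries, at 48.1, 44.8 and 43.2 CPM in YKL5124 libraries and at 87.0, 90.3 and 85.9 CPM in DMSO libraries. The log2 fold changes were -2.29 for AZ5576 (edgeR adjusted p = 8.20e-19), -0.26 for THZ531 (edgeR adjusted p = 0.00263) and -0.95 for YKL5124 (edgeR adjusted p = 5.35e-11). NFYC itself overlapped DMSO under AZ5576 and YKL5124. HCFC2, which flanks NFYB without overlap, fell by 1.10 under AZ5576 (SE 0.23) and by 0.70 under YKL5124 (SE 0.21) on the log2 scale.

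Under TMM scaling all 3 subunit genes had their highest mean under THZ531, while the size of their changes differed. Pearson's r of log2 CPM was 0.743 between NFYA and NFYB, 0.886 between NFYA and NFYC and 0.668 between NFYB and NFYC, as a description over libraries that share 4 treatments. Over the 7314 protein-coding genes that averaged 10 CPM or more, the highest r with NFYA was found for AKAP1 (r = 0.997), PBDC1 (r = 0.993) and NAF1 (r = 0.993). NAF1 had log2 fold changes of -0.85 under AZ5576, 1.83 under THZ531 and -0.62 under YKL5124, in the same order as NFYA. AKAP1 had smaller ones, -0.27, 0.61 and -0.19 for the same inhibitors, since r does not measure the size of a change. The highest r with NFYB was found for BCAS2 (r = 0.936), SLC25A33 (r = 0.923) and DDX42 (r = 0.915). For NFYC it was found for PCNA (r = 0.972), TXNDC5 (r = 0.966) and GOLT1B (r = 0.962). On the log2 scale PCNA was higher by 0.78 under THZ531, against 0.22 for NFYC.

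Partner factors of NF-Y, histone-fold relatives of its subunits and other factors named for the CCAAT motif were taken from lists. Counts refer to edgeR calls at an adjusted p of 0.05. The background was 18.6% higher and 23.1% lower under AZ5576, 30.4% and 32.9% under THZ531, and 7.25% and 13.5% under YKL5124. Of 20 partner factors tested, 7 rose and 4 fell under AZ5576 (2 and 6 with library size alone). With THZ531, 6 rose and 9 fell (1 and 11 with fly scaling). With YKL5124, 4 fell, but 4 rose and 2 fell with upper quartile scaling. RFXAP, a subunit of the RFX complex that binds next to NF-Y at MHC class II promoters, fell by 2.12 under AZ5576 (SE 0.25), by 1.07 under THZ531 (SE 0.22) and by 1.45 under YKL5124 (SE 0.22) on the log2 scale, at 1.198 to 2.77 CPM in AZ5576 libraries. TFDP1, the dimer partner of E2F factors, rose by 2.02 under THZ531 (SE 0.070), and LIN52, a subunit of the DREAM and MuvB complexes, fell by 2.76 (SE 0.18). LIN54, the DNA-binding MuvB subunit, fell by 0.75 under AZ5576, by 0.71 under THZ531 and by 0.39 under YKL5124, where the call was lost with upper quartile scaling. E2F1 fell by 0.29 under THZ531 and by 0.34 under YKL5124. Of 21 histone-fold relatives of NFYB and NFYC, 5 rose and 2 fell under AZ5576 (4 and 3 with library size alone). With THZ531, 13 rose and 3 fell (5 and 7 with fly scaling). With YKL5124, 2 rose and 1 fell (5 and 1 with upper quartile scaling). TAF8, a TFIID subunit, fell with each inhibitor, by 0.69, 1.51 and 0.46 for AZ5576, THZ531 and YKL5124. CENPW, a centromere protein, rose by 0.83 under THZ531 (SE 0.069). DRAP1, a subunit of the repressor NC2, rose by 0.42, 0.55 and 0.21 for AZ5576, THZ531 and YKL5124, each call lost with fly scaling. TAF9B, a TAF9 paralog, rose by 0.54, 0.82 and 0.45 for the same inhibitors, and with fly scaling the AZ5576 and YKL5124 calls were lost. Of 12 other factors named for the CCAAT motif, 3 rose and 6 fell under AZ5576, 3 rose and 5 fell under THZ531 (1 and 6 with fly scaling), and 2 rose and 4 fell under YKL5124. CEBPD fell by 1.77, 0.45 and 1.08 and CEBPA by 0.57, 1.03 and 0.49 for AZ5576, THZ531 and YKL5124. CEBPB fell by 1.36 under AZ5576 and by 1.03 under YKL5124, and NFIC fell by 1.22 under THZ531. CUX1 rose by 0.67 under AZ5576 and by 0.68 under YKL5124 but fell by 0.87 under THZ531.

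Genes of 4 classes known for NF-Y sites in their promoters were counted in the same way. Among listed genes with a window, tested or not, CCAAT was in 14 of 15 cell cycle, 9 of 10 MHC class II, 11 of 11 ER stress and 7 of 8 sterol synthesis genes. It was in 43.7% of 9480 tested protein-coding genes with a window. The classes were chosen for such sites, so their shares describe the choice and are not a result. Of 16 cell cycle genes, 1 rose and 6 fell under AZ5576 (11 fell with library size alone). With THZ531, 3 rose and 8 fell (13 fell with fly scaling). With YKL5124, 9 fell (6 with upper quartile scaling). CDC25A, a phosphatase that activates CDKs, fell by 1.31 under AZ5576 (SE 0.070), by 0.38 under THZ531 (SE 0.066) and by 1.36 under YKL5124 (SE 0.069). AURKA, a mitotic kinase, fell by 0.72, 0.49 and 0.48 for AZ5576, THZ531 and YKL5124. RRM2, a ribonucleotide reductase subunit, fell by 0.66 under AZ5576 and by 0.99 under YKL5124, and CDK1 rose by 0.55 under THZ531, a call lost with fly scaling. Of 13 sterol synthesis genes, 4 rose and 1 fell under AZ5576 (1 and 3 with library size alone). With THZ531, 11 rose (2 rose and 1 fell with fly scaling). With YKL5124, 3 fell (1 with upper quartile scaling). STARD4, a sterol carrier, rose by 1.08 under THZ531 (SE 0.091). HMGCS1, which makes HMG-CoA, rose by 0.52 under THZ531, a call lost with fly scaling, and fell by 0.32 under YKL5124 and by 0.19 under AZ5576, the last lost with upper quartile scaling. Under AZ5576 LSS, lanosterol synthase, rose by 0.50 and MVD, of the mevalonate pathway, by 0.38, both calls lost with fly scaling, and MVD rose by 0.73 under THZ531. Of 11 ER stress genes, 5 rose and 3 fell under AZ5576 (2 and 5 with library size alone). With THZ531, 7 rose and 3 fell (2 and 4 with fly scaling). With YKL5124, 4 fell, but 3 rose and 3 fell with upper quartile scaling. DDIT3, the stress factor CHOP, fell by 1.97, 2.45 and 1.28, and HERPUD1, of ER-associated degradation, fell by 1.77, 1.01 and 1.61, for AZ5576, THZ531 and YKL5124. Of 6 MHC class II genes tested among 11 listed, 2 were called higher under AZ5576 (CD74 and HLA-DMB). Under THZ531, 4 were called higher (1 with library size alone, 0 with fly scaling). Under YKL5124 edgeR called 0 and DESeq2 0, with 1 gene higher at an unadjusted p under 0.05. CD74, the invariant chain, rose by 0.34 under AZ5576 and by 0.51 under THZ531, calls lost with library size or fly scaling. HLA-DRB1 rose by 0.49 under THZ531, a call lost with fly scaling. HLA-DMB passed the filter on low counts only through the AZ5576 libraries, at 1.04 to 2.18 CPM, against 0.157 to 0.222 CPM in DMSO libraries, so its call is no support for a direction. With fly scaling, every call of the partner, histone-fold, cell cycle, ER stress and sterol lists under AZ5576 was lower, for 5, 2, 8, 5 and 2 genes. Over all tested protein-coding genes with a window, the median log2 fold change was -0.02 with CCAAT and -0.01 without it under AZ5576, -0.06 and -0.04 under THZ531, and -0.03 and -0.02 under YKL5124.

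**Figure D5:**
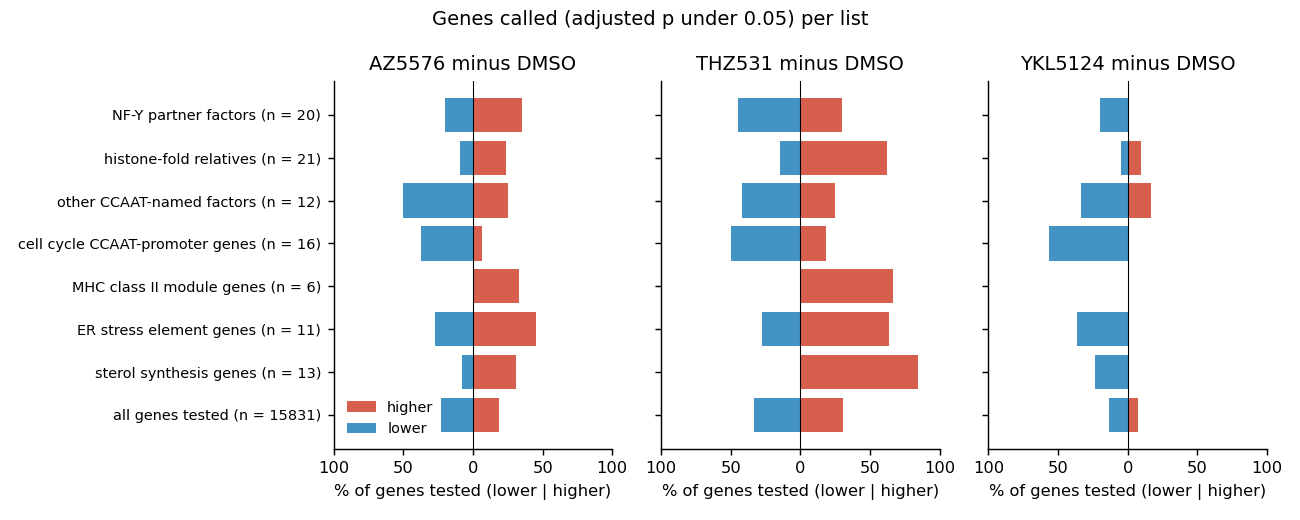
Percentage of tested genes of each list called lower (blue, drawn to the left) or higher (red, drawn to the right) than DMSO at an adjusted p of 0.05, for AZ5576, THZ531 and YKL5124, with all 15831 genes tested in the bottom row. Under TMM scaling 11 of 13 sterol synthesis genes are called higher under THZ531, and 9 of 16 cell cycle genes are called lower under YKL5124.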

How the data were processed

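QuantSeq 3′ libraries of 12 THP-1 samples were used as whole-number read counts, not normalised, which the authors deposited in 295100 rows. Builds hg38 and dm6 stand in the submitters' processing notes, as do Trim Galore 0.6.5 and bcl2fastq 2.17.1.14. Which aligner, counter, annotation or strand setting was used is not given in the sources used here. 9 columns match sample titles, and the remaining 3, headed UT, were taken as the DMSO libraries by elimination. RNA made during labelling was not analysed separately.

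GENCODE 29 names 251529 of 256726 human rows, and the 5197 unnamed rows (0.655% to 0.719% of a library's counts) were left out. Rows overlap, so each gene was given its row with the highest total over 12 libraries. Among genes with identical counts and a total of at least 120, 94 were dropped. Genes were fitted with edgeR 4.0.16 (R 4.3.3, filterByExpr, minimum count 10, TMM, quasi-likelihood F test, Benjamini-Hochberg over 15831 genes) with all groups in 1 fit, and the fit was tested on simulated data. DESeq2 1.42.0, other scalings, filters, row choices and left-out libraries were alternatives.

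Members and lists were chosen with earlier results of these data known. Named genes are the members, the 2 called genes with the smallest adjusted p per list and comparison, the 3 genes most correlated with each member, and neighbours; some markers and genes that this rule names are not reported here. Depth limits the rows with few counts.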

Additional observations from a re-analysis of the deposited data

How the results depend on the processing

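Of 225 log2 fold changes of the 3 genes under alternatives, 208 moved by less than the spread between replicates, and the others follow. The sign changed in 14 of the 225, all of them values of NFYB or NFYC. With fly scaling the values were -0.81 for NFYA, -0.34 for NFYB and -0.19 for NFYC under AZ5576, 1.11, -0.20 and -0.15 under THZ531, and -0.02 for NFYB and -0.10 for NFYC under YKL5124. With library size alone they were -0.28 for NFYB and -0.11 for NFYC under AZ5576, and 1.19, -0.13 and -0.072 for NFYA, NFYB and NFYC under THZ531. Upper quartile scaling gave 0.033 for NFYC under YKL5124. With rows summed per gene, NFYA had 1.73 and NFYC 0.28 under THZ531, and with each row tested on its own NFYC had 0.17. The cause was not tested. Leaving out 1 library at a time gave -0.71 to -0.55, 1.40 to 1.57 and -0.59 to -0.42 for NFYA under AZ5576, THZ531 and YKL5124, -0.18 to -0.11, 0.11 to 0.18 and 0.02 to 0.09 for NFYB, and -0.02 to 0.05, 0.18 to 0.26 and -0.06 to 0.0049 for NFYC.

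Counts of called genes stayed within 1.5 times the main count in all 75 alternatives, and 42 of 126 list counts moved further. Of the calls, 44.7% were higher under AZ5576 (21.9% with library size alone, 10.3% with fly scaling), 48.0% under THZ531 (23.2% and 13.2%), and 34.9% under YKL5124 (21.1% with fly scaling, 54.1% with upper quartile). The labels give the groups the same replicate numbers. Of 18 same-numbered pairs 0 had a correlation of deviations over 0.1 (range -0.102 to 0.0724), and 2 of 12 libraries were closest to their own number. The fit with the replicate block called 6520, 9961 and 3215 genes for AZ5576, THZ531 and YKL5124, against 6603, 10033 and 3288 without it. AZ5576 replicate 2 is the shallowest library, and the few counts of NFYC-224, NFYC-216 and NFYB-203 limit what can be said of them. The same holds for NFYA-202 outside THZ531.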
